A study of Mus musculus with 8 samples.

Results

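Isolated clusters were places where many Ptbp2-bound RNA fragments piled up on the genome while no comparable pile lay within 100 kb on the same strand. They were chosen by measured values, the height, spacing and tag positions of piles. The mapped fragments (tags) of 8 libraries were pooled, tags sharing at least 1 nt of one strand were joined, and height was defined by taking the largest number of tags over one base of a cluster. A cluster counted as isolated when its height was 10 or more, it lay on chromosomes 1 to 19, no other cluster of that height lay within 100 kb on its strand, and under 50% of its tags had one and the same start and end. The rule took 3143 of the 21478 clusters of height 10 or more on these chromosomes, and 22803 clusters of that height were found in all. They held 60974 tags, 1.97% of all tags. Most were low: 1734 of them (55.2%) had a height of 10 to 14, and 23 (0.732%) had a height of 100 or more.

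Ptbp2 is a polypyrimidine tract binding protein enriched in neurons. It binds pyrimidine-rich stretches of RNA, often in introns, and is known for repressing the use of nearby exons during the maturation of neurons. Introns of brain transcripts can be very long, and one transcript can hold many binding places.

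RNA crosslinked to Ptbp2 by HITS-CLIP was taken from the cortex of CD1 mouse embryos at embryonic day 18.5. In this method ultraviolet light links a protein to the RNA it touches, the complexes are recovered with an antibody, and the bound fragments are sequenced. All 8 libraries carry wild-type titles, with 4 libraries from brain 1 and 4 from brain 2. Libraries of another genotype, antibody or input RNA were not analysed here. A brain is 1 animal, so the spread between its 4 libraries is technical and p-values between brains measure only that spread. In bulk tissue, fewer cells of a type and less RNA per cell cannot be told apart, and without input RNA, binding and RNA abundance cannot be told apart either. Library depth ran from 228424 to 545387 tags of 27 to 30 nt, and every library of brain 1 was deeper than every library of brain 2. Positions are given as mm9, counted from 1. Host genes, sequences and marker genes of the tissue were not analysed here, since the reference tables describe another assembly.

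Isolated clusters were narrower than clusters with a neighbour. In what follows, neighboured clusters are the 10054 clusters of height 10 or more that had another within 100 kb and passed the same limit on tags at one position, and clusters past that limit are called stacks. The median height, a value the rule used, was 14 tags in both classes, while the mean was 18.9 for isolated and 21.02 for neighboured clusters and the tallest reached 373 and 6851 tags. Isolated clusters made up 14.9% of the clusters of height 10 to 14 (exact 95% interval 14.3% to 15.6%). Of those of 100 or more they made up 11.005% (23 of 209, 7.1% to 16.1%), an interval that covers the first share. The median width was 40 nt for isolated clusters, with quartiles of 35 and 48 nt, against 48 nt for neighboured ones, with quartiles of 40 and 64 nt. A width of 50 nt or less was found in 79.9% of isolated and 55.8% of neighboured clusters. Isolated clusters of 100 nt or more were rare, at 27 (0.859%), against 5.998% of neighboured clusters. Each tag lay over the highest base in 89.0% of isolated clusters, so that the cluster was a single pile, compared with 67.6% of neighboured clusters. The width difference was also seen at equal tag numbers: with 10 to 14 tags the medians were 39 and 44 nt, and with 40 to 99 tags 40 and 65 nt. Since tags sharing 1 nt are joined, width and single-pile form also depend on how densely tags lie next to a pile. In the first 200 nt outside the cluster, isolated clusters had a mean of 3.32 same-strand tags per kb and neighboured ones 30.9. The rule largely fixes this contrast, and its part in the width difference was not tested.

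The fragments of these piles differed in their ends, which the limit on tags at one position favours by its choice. The median isolated cluster held 8 distinct pairs of start and end, as did the median neighboured cluster, and the stacks that the limit left out had a median of 4. Its tags had 5 distinct 5′ ends and 6 distinct 3′ ends, against 6 and 7. The fullest 5′ end held a median of 42.9% of the tags of an isolated cluster, and the fullest 3′ end held 38.5%. When repeated rows of one position were counted once per library, the median isolated cluster kept 12 tags, the same as a neighboured one. Tags in isolated clusters were shorter than those in neighboured clusters: 43.2% had the full length of 30 nt, against 54.1%. Outside clusters the share was 42.2%, close to that of isolated clusters. In stacks it was 39.3% with no neighbour within 100 kb and 48.4% with one. In each of the 8 libraries the share of full-length tags in isolated clusters (40.7% to 46.1%) was below that in neighboured clusters of the same library.

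Values lay close to each limit of the rule on both of its sides. Isolated clusters nearest the distance limit had neighbours at 100.078 and 100.104 kb, and the closest clusters left out had neighbours at 99.991, 99.988 and 99.898 kb. On the other limit, the fullest position held 49.5%, 49.2% and 49.1% of tags in the members closest to it and 50% in the clusters just outside. Stacks were common among spaced clusters: of the 5472 clusters with no neighbour within 100 kb, 2329 (42.6%, exact 95% interval 41.2% to 43.9%) were stacks, against 37.2% (36.4% to 37.9%) of the 16006 clusters with a neighbour. These intervals and all others on shares are Clopper-Pearson intervals and cover counting error only.

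Distances between an isolated cluster and the next one on its strand had a median of 232881 nt, with quartiles of 149408 and 387420 nt. The distance was 200 kb or more for 1806 isolated clusters (57.5%), 500 kb or more for 487 (15.5%) and 1 Mb or more for 76 (2.42%). The farthest was a cluster of 12 tags at chr11:62768184-62768223 on the plus strand, 2440 kb from its neighbour. The next in order were chr7:9004220-9004253 on the plus strand, with 26 tags at 2203 kb, and chr4:152287573-152287606 on the plus strand, with 25 tags at 2031 kb. The 2 after these were chr19:60132237-60132270 on the plus strand, with 13 tags, and chr14:3052593-3052627 on the minus strand, with 10 tags. Isolation was relative to the height limit, since 74.5% of isolated clusters had a smaller cluster of height 5 or more within 100 kb on their strand and 25.8% had one within 10 kb.

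Around isolated clusters the same strand was sparsely covered, as the rule largely fixes, but it was not empty. Within 10 kb on both sides the median isolated cluster had 9 other tags on its strand, against 99 for a neighboured cluster, and within 50 kb it had 37 against 364. On average there were 54.1 same-strand tags within 50 kb of an isolated cluster, near the 59.1 that the mean over chromosomes 1 to 19 (0.591 tags per kb and strand) gives. Coverage was densest next to the pile: 3.32 tags per kb in the first 200 nt, 0.594 at 5 to 10 kb and 0.456 at 20 to 50 kb. Within 10 kb the sides were alike, with the 5′ side fuller for 45.9% and the 3′ side fuller for 44.0% of isolated clusters. No other same-strand tag lay within 1 kb of 34.6% of isolated clusters, and within 10 kb of 68 (2.16%). A single one, 32 tags at chr2:68264763-68264807 on the plus strand, had no same-strand tag within 50 kb, where the minus strand held 162.

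**Figure D1:**
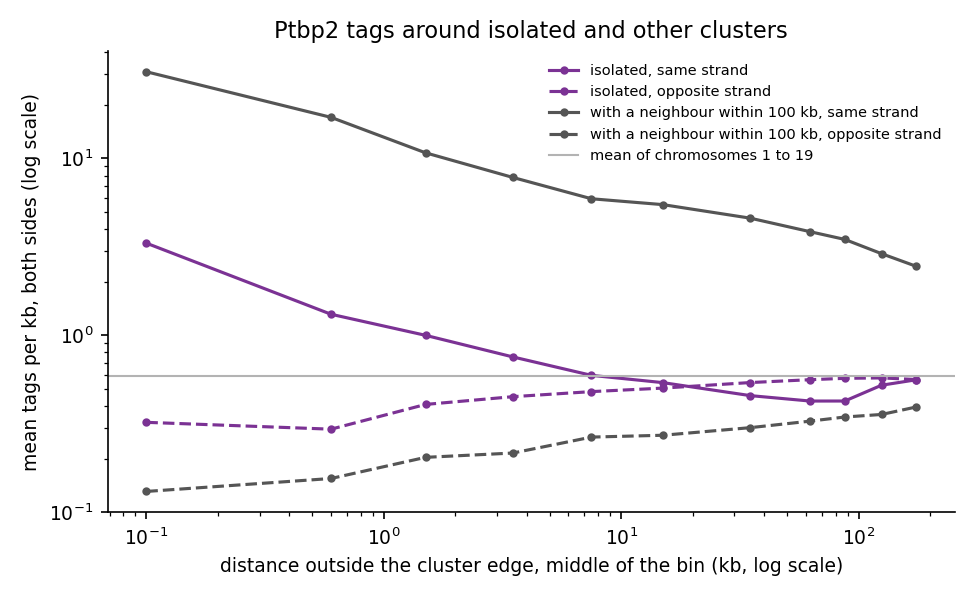
Mean tags per kb by distance from the cluster edge, on the cluster's own strand and on the opposite strand, for isolated and neighboured clusters (both axes on a log scale, the grey line the mean over chromosomes 1 to 19). The same-strand level of isolated clusters falls from 3.32 tags per kb in the first 200 nt to 0.456 at 20 to 50 kb, while their opposite strand goes from 0.322 to 0.541.

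Compared with their own strand, the opposite strand was often the fuller one around isolated clusters. The rule limits the own strand of isolated clusters and a neighbour adds to that of the others, so shares and ratios that set the strands against each other are descriptions that rest largely on the rule. Within 50 kb it held more tags than the cluster's own strand for 1265 isolated clusters (40.2%, 38.5% to 42.0%), against 5.42% of neighboured clusters. Spaced stacks were alike in this, at 40.96%. It held at least 5 times as many for 8.97% of isolated and 0.686% of neighboured clusters. The opposite-strand count itself does not enter the rule. Its median within 50 kb was 29 tags for isolated clusters, 30 for spaced stacks and 18 for neighboured clusters. The means were 51.4 for isolated and 28.1 for neighboured clusters, both below the 59.1 of the chromosome mean, so it was the neighboured clusters that lay farther from it. The order of the classes was seen in each of the 8 libraries, where the opposite-strand mean around isolated clusters was 1.68 to 1.96 times that around neighboured ones. The ratio of opposite-strand to same-strand tags lay between 0.936 and 0.962 in the libraries for isolated clusters and between 0.043 and 0.067 for neighboured ones. A cluster of height 10 or more lay on the opposite strand within 10 kb of 4.87% of isolated and 2.46% of neighboured clusters.

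For a small number of isolated clusters the opposite strand carried a dense group of clusters. Groups here join clusters of one strand spaced by under 20 kb, and 15 isolated clusters (0.477%) lay inside an opposite-strand group of 3 or more. Spaced stacks were near this, at 0.343%, and neighboured clusters were at 0.0597%. The largest such group had 49 clusters around the 35 tags of chr14:124998901-124998931 on the plus strand, with 1185 tags on the minus strand and 26 on the plus strand within 50 kb. The 16 tags of chr16:6592726-6592761 on the minus strand lay in a plus-strand group of 41 clusters, with 1367 opposite and 29 same-strand tags within 50 kb. The 16 tags of chr3:25670956-25670992 on the plus strand lay in a group of 26, with 885 against 20. Each of these 3 clusters therefore stood alone on a strand whose partner was densely covered.

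The 20 tallest isolated clusters held 4261 tags, 6.99% of the tags of all isolated clusters, and each had tags in all 8 libraries. Their heights ran from 373 down to 112, and the next cluster had a height of 107. Of the 20, 13 lay on the minus strand, 15 were 50 nt wide or less and 18 had each tag over the highest base. They were composed of 13 to 84 distinct positions, and 40 to 200 of their tags were left when repeated rows were counted once per library. The opposite strand was fuller within 50 kb around 8 of them.

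The tallest was the pile of 373 tags at chr11:56230396-56230432 on the plus strand, 37 nt wide and 460 kb from its neighbour. Libraries 1 to 4 gave it 52, 54, 48 and 44 tags in brain 1, and 33, 32, 59 and 51 tags in brain 2. Per 1000000 tags of a library (CPM, used for all levels below), brain 1 had 103 ± 11.1 and brain 2 had 154 ± 55.7 (mean and SD of 4 libraries, as for all levels below). The brains overlapped, since libraries 1 and 2 of brain 2 lay near brain 1 and libraries 3 and 4 lay above it. It was also sharp at one edge: 71.0% of its tags shared one 3′ end, while the fullest 5′ end held 30.8%.

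The cluster with the most tags, 534, was the second in height (347), at chr6:49186467-49186606 on the minus strand. It received 86, 64, 83 and 76 tags in the libraries of brain 1 and 58, 60, 64 and 43 in those of brain 2. Its level was 160 ± 16.8 CPM in brain 1 and 194 ± 15.6 CPM in brain 2, and all 4 libraries of brain 2 lay above all of brain 1. On the trimmed-mean scale of the test below the brains overlapped, at 170 ± 16.7 and 183 ± 28.6. Its 140 nt made it one of the few wide isolated clusters. The third in height, 320 tags at chr5:56211416-56211456 on the minus strand, had 67, 60, 31 and 29 tags in brain 1 and 39, 33, 34 and 27 in brain 2. Within brain 1 its libraries 1 and 2 stood at 123 and 131 CPM and libraries 3 and 4 at 67.4 and 61.8 CPM, a wider gap than that between the brain means of 95.7 ± 36.2 and 116 ± 21.7 CPM.

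The widest isolated cluster, 248 nt at chr16:57391540-57391787 on the minus strand, differed in form from the single piles. It held 446 tags at 84 distinct positions, with 15.02% at the fullest, and its height of 158 was well under its tag number, so its tags spread along the RNA. Brain 1 contributed 58, 41, 59 and 64 tags and brain 2 contributed 51, 61, 61 and 51. Every library of brain 2 (179 to 223 CPM) lay above every library of brain 1 (89.5 to 136 CPM).

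Several tall sites lay on the thinly covered strand of a locus. At chr5:19413462-19413499 on the minus strand, 120 tags formed a pile of 38 nt with 0 other minus-strand tags within 10 kb, where the plus strand held 96. Within 50 kb the counts were 18 minus-strand and 623 plus-strand tags. Its libraries gave 9, 12, 22 and 12 tags in brain 1 and 10, 18, 19 and 18 in brain 2, which overlapped at 29.02 ± 13.3 and 56.7 ± 16.99 CPM. At chr9:13307087-13307132 on the minus strand, 154 tags at 34 distinct positions had 3 other same-strand tags within 10 kb and 40 opposite ones. The libraries of brain 1 gave this site 21, 23, 17 and 8 tags and those of brain 2 gave it 13, 15, 35 and 22. In brain 2 its libraries 3 and 4 (103 and 96.3 CPM) were higher than libraries 1 and 2 (48.6 and 45.6 CPM), and the latter lay within the range of brain 1.

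At chr3:89367105-89367151 on the minus strand, the 202 tags came as 30, 24, 25 and 27 in brain 1 and 25, 24, 25 and 22 in brain 2. At 54.8 ± 2.11 CPM in brain 1 and 84.0 ± 12.6 CPM in brain 2, the brains did not overlap. It also had 33 distinct positions and 13.9% of its tags at the fullest. The opposite direction was seen at chr1:195459074-195459130 on the plus strand, with 44, 34, 33 and 45 tags in brain 1 and 17, 23, 27 and 13 in brain 2. Its level was 80.6 ± 10.8 CPM in brain 1 and 67.4 ± 9.49 CPM in brain 2, and the brains overlapped, while on the trimmed-mean scale every library of brain 2 lay below brain 1. Of its 236 tags, 49.2% had one start and end, close to the limit of the rule.

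Among the 20 tallest, the mean CPM was higher in brain 2 for 18 and lower for 2, chr1:195459074-195459130 and chr14:23253975-23254011. The brains did not overlap for 5 of the 20, all with brain 2 above. These counts changed with the scale: by the trimmed mean of log ratios, 16 were higher and 4 lower in brain 2, and the brains did not overlap for 4 with brain 2 above and 1 with brain 2 below. Shares were also taken over all clusters that had enough tags for the test below. A log2 change above 0 (brain 2 over brain 1) was found for 62.7% of them with total tags as the scale. By the trimmed mean it was 51.3%. On the CPM scale, 10.7% had every library of brain 2 above every library of brain 1, and 1.5% had every one below. By the trimmed mean the shares were 6.22% above and 6.44% below.

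**Figure D2:**
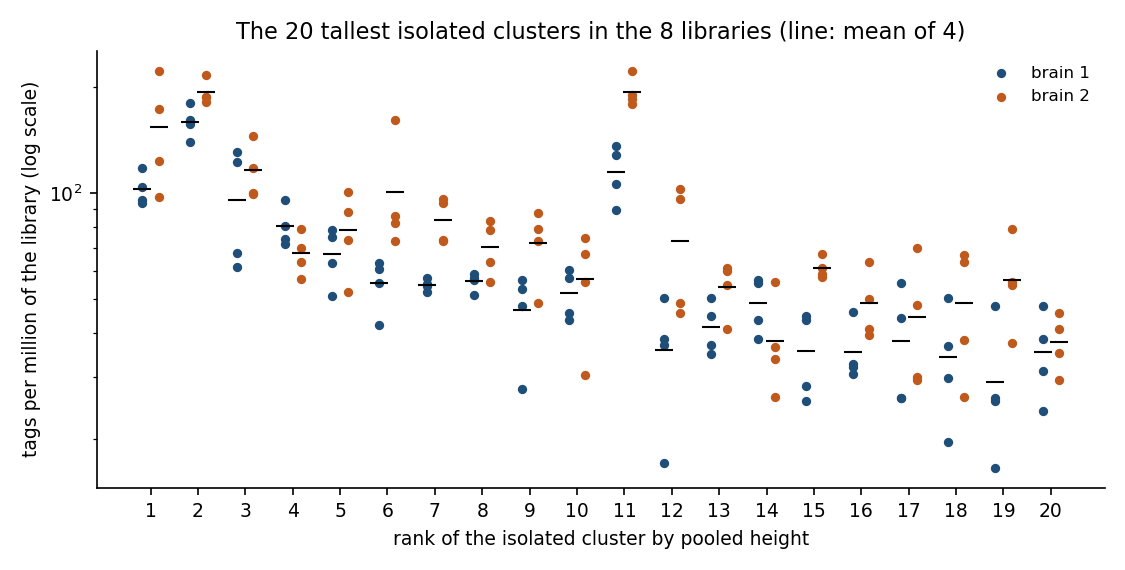
CPM of each library (log scale) in the 20 tallest isolated clusters, by rank of pooled height, with each point a library, the line the mean of 4 libraries and the brains in separate colours. Rank 2, on chromosome 6, has all 4 libraries of brain 2 above those of brain 1 on this scale (though not on the trimmed-mean scale), while rank 1, on chromosome 11, has overlapping brains.

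Isolated clusters took a larger share of the tags in brain 2. They held 1.72%, 1.76%, 1.91% and 1.91% of the tags of libraries 1 to 4 of brain 1 and 2.30%, 2.19%, 2.13% and 2.27% of those of brain 2, with no overlap. The means were 1.82% ± 0.0988 and 2.22% ± 0.0773 (SD, n = 4 libraries each), a difference of 0.400 percentage points (two-sided exact permutation test, p = 0.0286, the smallest that 4 against 4 libraries can give). Brain 2 was higher within libraries 1 and 2, whose titles carry the letter a, and within libraries 3 and 4, which carry the letter b. The neighboured clusters held 7.503% ± 0.0256 and 7.79% ± 0.887 of the tags (exact permutation p = 0.857). Spaced stacks, the isolated clusters' counterpart past the limit on one position, held 1.44% ± 0.0498 and 1.70% ± 0.127 (exact permutation p = 0.0286, the same smallest value).

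The size of the difference depended on what the tags were set against. As a share of the tags in all clusters of the same height on chromosomes 1 to 19, isolated clusters made up 12.5% ± 0.588 in brain 1 and 14.3% ± 1.16 in brain 2 (exact permutation p = 0.0857), which does not pass 0.05. Same-strand tags within 50 kb of an isolated cluster, outside the cluster itself, were at 17.3 ± 0.210 CPM per cluster in brain 1 and 17.6 ± 0.308 CPM in brain 2 (exact permutation p = 0.257). Depth and repeated rows also differed between libraries: rows that repeat a position within a library made up 23.9% ± 0.799 of the isolated clusters' tags in brain 1 and 21.1% ± 2.47 in brain 2, and their part in the difference was not tested beyond counting such rows once, which left a difference of 0.425 points. With brain 1 thinned at random to the depth of brain 2 before clusters were chosen, 2566 clusters were isolated and the difference was 0.503 points.

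**Figure D3:**
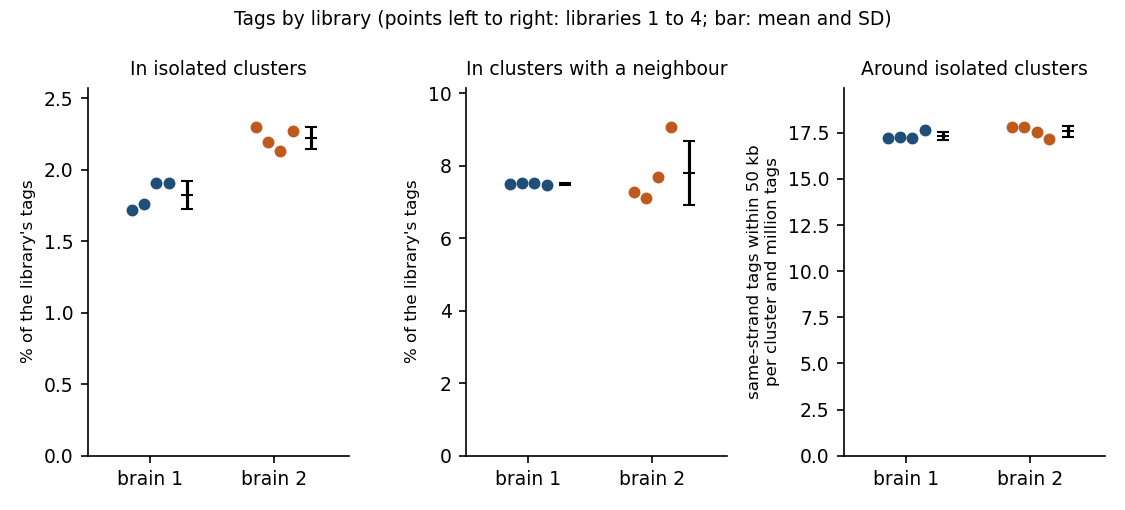
Percent of each library's tags in isolated clusters and in clusters with a neighbour, and same-strand tags within 50 kb of an isolated cluster in CPM per cluster, with points for libraries 1 to 4 from left to right and a bar for the mean and SD. For isolated clusters the 4 libraries of brain 2 (2.13% to 2.30%) sit above the 4 of brain 1 (1.72% to 1.91%), while in the other panels the brains overlap.

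The share of brain 2 went with spacing in steps. Of the tags in isolated clusters 42.3% came from brain 2, against 38.3% in neighboured clusters and 37.6% of all tags. By distance to the nearest cluster on the strand, it was 37.2% under 1 kb, 36.8% from 1 to 10 kb, 39.1% from 10 to 50 kb and 43.0% from 50 to 100 kb. Among isolated clusters it was 42.0% from 100 to 200 kb, 42.9% from 200 to 500 kb and 41.7% beyond 500 kb. The rise thus fell between 10 and 100 kb, below the limit of the rule, and the 3 classes of isolated clusters showed no order with distance. At equal tag numbers the gap between the classes was also seen, with 42.0% of tags from brain 2 in isolated and 37.3% in neighboured clusters of 10 to 14 tags, and 42.8% and 37.1% in those of 20 to 39 tags. It was narrower in clusters of 100 or more tags, at 44.3% and 42.6%.

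Width and the opposite strand changed along the same distances. The median width fell from 55 nt under 1 kb to 41 nt at 50 to 100 kb and was 39 to 40 nt among isolated clusters. The opposite strand was fuller within 50 kb for 1.47% of clusters with a neighbour under 1 kb, for 26.2% at 50 to 100 kb, and for 35.2%, 42.5% and 48.0% of isolated clusters in the 3 classes of rising distance. Same-strand clusters within 50 kb add to the same-strand count by construction, so the first classes of this series are fixed in part by the distance itself.

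**Figure D4:**
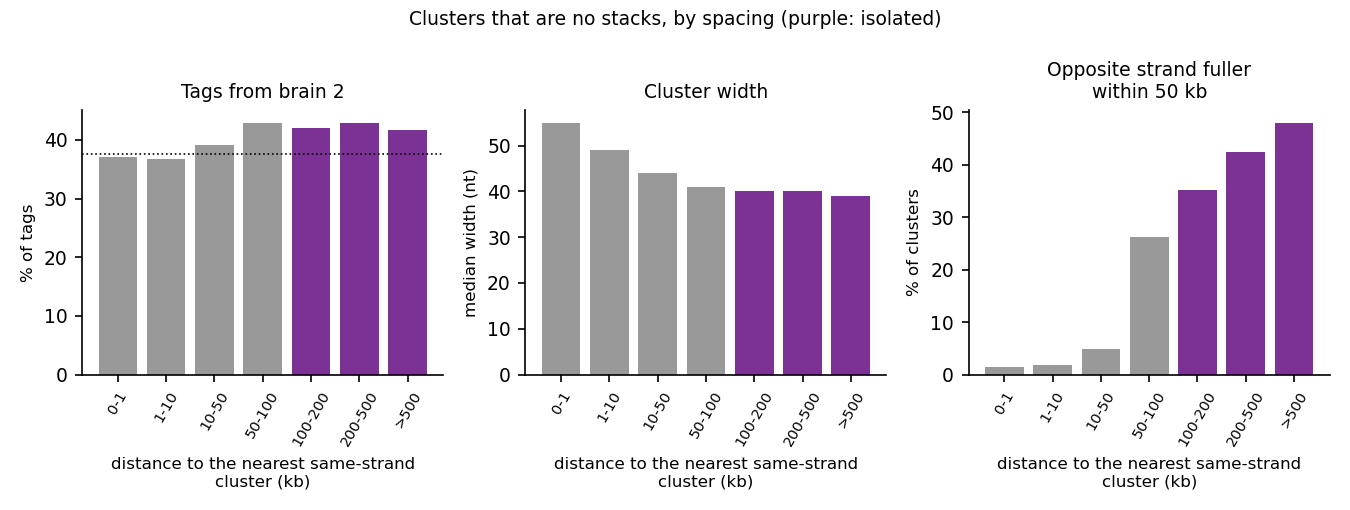
Clusters that are not stacks, by distance to the nearest same-strand cluster (kb), with the isolated ones in purple: percent of tags from brain 2 (dotted line: all tags), median width in nt, and percent of clusters with more opposite than same-strand tags within 50 kb. The first 2 quantities change mainly below 100 kb, and the third goes on to 48.0% beyond 500 kb.

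Nearly all isolated clusters were seen in both animals. Tags of both brains were found in 3129 of the 3143 (99.6%, 99.3% to 99.8%), and the other 14 had tags of brain 1 alone. Neighboured clusters had tags of both brains in 99.1%. All 8 libraries had a tag in 791 isolated clusters (25.2%), against 24.3% of neighboured ones, and 6 or more libraries in 82.7% against 78.2%. At equal tag numbers isolated clusters were spread over more libraries: with 20 to 39 tags, 56.5% (52.5% to 60.5%) of isolated and 48.5% (46.4% to 50.5%) of neighboured clusters had tags in all 8. With 100 tags or more each cluster of either class did. These shares use the pooled tags that also set the height, so they are a description.

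A stricter look chose clusters in one brain and counted tags in the other, which the choice had not used. Applied to brain 1 alone, the rule gave 1858 isolated clusters, of which 98.6% (98.0% to 99.1%) had at least 1 tag of brain 2 and 91.3% (90.0% to 92.6%) had at least 3. Windows of the same width 5 kb to each side had a brain 2 tag in 1.91%. For neighboured clusters of brain 1 the share with 3 or more tags was 88.2%, and 10.8% of their windows 5 kb away had a tag. Among clusters of height 10 to 14 in brain 1, 3 or more brain 2 tags were found in 86.8% (84.6% to 88.7%) of isolated and 81.6% (79.9% to 83.2%) of neighboured clusters. From a height of 25 the shares were 99.6% and 99.8%, so the classes came together at the tall end.

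Chosen in brain 2, the rule gave 1292 isolated clusters, and 99.9% of them had a tag of brain 1 and 99.4% had 3 or more. Here the order of the classes turned in amount: isolated clusters of height 10 to 14 in brain 2 had a median of 12 brain 1 tags and neighboured ones 15. In the first direction the medians were 6 brain 2 tags for isolated and 5 for neighboured clusters. Tags of the other brain were counted over the whole width of a cluster, while height was taken at one base. Neighboured clusters were the wider class in the pooled tags, and the part of width in these medians was not tested. The differences between classes in these medians were not tested.

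**Figure D5:**
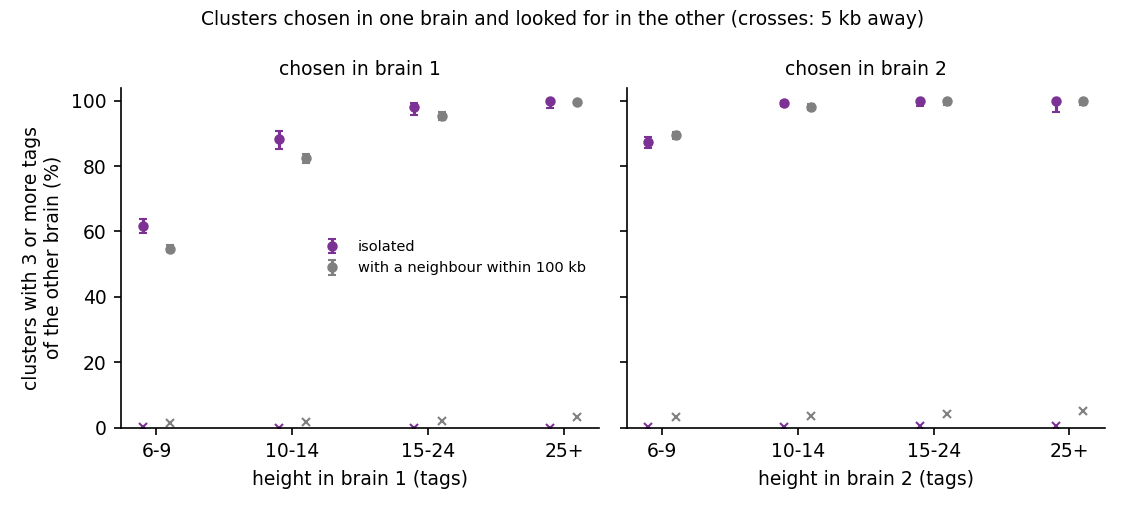
Percent of clusters chosen in one brain that hold 3 or more tags of the other brain, by height in the choosing brain, for isolated and neighboured clusters, with exact 95% intervals and crosses for windows 5 kb away. The plot takes clusters of height 6 or more in the choosing brain and measures isolation among these. Taller clusters are covered more often, and both classes come to about 100% from a height of 25.

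Site by site, few isolated clusters could be compared between the brains. A limma voom fit over all clusters took those with enough tags (in 4 or more libraries, at least the CPM that 10 tags make at the median depth), which left 466 clusters, 48 of them isolated. Of the 48, 0 were called at an adjusted p under 0.05, where 1.29% of all tested clusters were called. At an unadjusted p under 0.05, 9 of the 48 passed, against 90 of all 466 tested clusters. All 9 were higher in brain 2, as were 55 of the 90 (11.8% of all tested clusters). With trimmed means of log ratios as the scale, 32 of the 48 had a log2 change above 0 (brain 2 over brain 1), against 51.3% of all tested clusters. The libraries did not overlap for 5 isolated clusters with brain 2 above (background 6.22%) and for 3 with brain 2 below (background 6.44%). With total tags as the scale the counts were 6 above (background 10.7%) and 0 below (background 1.5%). A cluster could pass the count filter through 1 brain alone, so these counts describe the tested clusters and not all isolated ones.

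The smallest adjusted p among the 48 was at the widest site, chr16:57391540-57391787. Its log2 change was 0.58 ± 0.16 (SE), higher in 4 of 4 libraries of brain 2 than in any of brain 1, with an adjusted p of 0.0557 in limma. The alternatives gave it adjusted p-values from 0.000863 to 0.488, and it was called without library 4 of brain 1 (adjusted p = 0.0207). The next were chr9:13307087-13307132 with a log2 change of 0.88 ± 0.28 and an adjusted p of 0.100 in limma, and chr10:116913951-116913984 with 0.62 ± 0.20 and 0.101. Scaling by total tags in place of the trimmed mean moved the median log2 change of all 466 clusters from 0.02 to 0.16 and called 2 of the 48 isolated clusters, both higher in brain 2, against a background of 3.22%.

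Without the count filter all 3143 isolated clusters entered the fit. None were called by limma voom (0 of 3143, background 0.0307%). An unadjusted p under 0.05 was found for 137 of the 3143 isolated clusters and for 1363 of all 22803 clusters. Of the 137, 92 were higher in brain 2, as were 491 of the 1363 (background in that direction 2.15%). The median log2 change of isolated clusters was 0.04, that of neighboured clusters -0.25 and that of all 22803 clusters -0.15. The libraries did not overlap for 53 isolated clusters with brain 2 above (background 1.1%) and 66 below (background 3.82%), which became 98 (background 2.18%) and 35 (background 2.09%) when scaled by total tags. A log2 change above 0 was found for 52.6% of isolated clusters and 42.5% of all. With total tags as the scale the median was 0.32 for isolated and 0.12 for all clusters, and 66.7% and 56% were above 0. On that scale 1 of the 3143 was called, chr16:57391540-57391787, against a background of 0.0526%. On either scale the isolated clusters stood on the brain 2 side of the rest, while the sign of the background turned with the scale.

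Isolated clusters were found on each of the 19 chromosomes. Their number per Mb ran from 1.11 on chromosome 18 to 1.61 on chromosome 3, and that of neighboured clusters from 3.23 on chromosome 13 to 7.02 on chromosome 16. Their share of all clusters of height 10 or more was lowest on chromosome 16 (9.86%) and highest on chromosome 3 (18.7%). On the plus strand lay 38.8% of isolated and 38.3% of neighboured clusters, so both classes favoured the minus strand to a like degree. Spaced stacks had 46.8% on the plus strand.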

How the data were processed

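The deposited file was a list of mapped tags of all 8 libraries, with positions, strand, a tag name and a score, which in the deposited file was 0 throughout and unused. Tag names open with a code that matches each library's title, and 0 tags lacked one. Per the submitters' processing notes, Bowtie (version not given) was used, with builds mm9 and mm8; positions past the end of mm8 chromosome 1 set the build as mm9. Per the labels' protocols, reads began with 4 degenerate bases, then G. The handling of repeated reads and of reads with several matches was not given in the sources used here.

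Clusters, distances and tags per library were computed with Python 3.11.15 and SciPy 1.17.1, and the brains were compared with limma 3.58.1 (voom, R 4.3.3) over all clusters, with Benjamini-Hochberg adjustment at 0.05. The test per cluster stands in for a count test on a count table. Single values per library were compared by two-sided exact permutation tests. The fit was tested on simulated data with 466 clusters and 200 changed. It called 80.0% of the clusters raised 2-fold in brain 2 and 100% of those raised 4-fold. Of those lowered to 0.5 of their level it called 60.0%, and of those lowered to 0.25 it called 88.0%, with 7 false calls among 266. The spread between simulated libraries was set in advance and not estimated from these data. These shares therefore do not give the power for the isolated clusters. Replicate numbers were not taken to pair the libraries, since the labels do not say that they do. The values were also checked, though such a check cannot exclude a pairing. For this check the mean log2 CPM of its own brain was subtracted from each library, cluster by cluster. What remained correlated from -0.0503 to 0.00164 between same-numbered libraries of the brains, and from -0.0605 to 0.0746 between libraries of other numbers. Sites were named by rule: the 20 tallest (described in part), the 3 smallest p, the 5 farthest from a neighbour, and those at each limit; sites with the largest opposite-strand groups, the widest, and the one with no same-strand tag within 50 kb were added after their values were seen. The members and lists were chosen with earlier results of these data known.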

Additional observations from a re-analysis of the deposited data

Results flagged for a closer look

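Values of the 4 libraries of a brain were looked at in 58 sets, and in 4 sets the highest or lowest stood far apart. By chance about 1 in 20 sets does so, or 2.9 of 58. Within brain 1, library 3 had a ratio of opposite-strand to same-strand tags around isolated clusters of 0.962, against 0.949 to 0.9502 in the others. Library 4 of brain 1 had 17.7 CPM of same-strand tags within 50 kb of an isolated cluster, against 17.2 to 17.3. At chr10:116913951-116913984, library 4 of brain 2 stood at 162 CPM and the other libraries of that brain at 72.9 to 86.0. At chr10:107492523-107492557, library 1 of brain 1 stood at 45.8 CPM and the other libraries of that brain at 30.5 to 32.7.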

How the results depend on the processing

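The number of isolated clusters was 3143, moved to 1806 with no neighbour within 200 kb, 847 with under 25% of tags at one position and 5472 with no such limit, and was 2777 to 2979 with a library left out. Their median width of 40 nt became 39 at a height of 8 or more and with tags joined at 10 nt, 42 at 15 or more, 43 under 25% and 37 with no limit. The median of 9 same-strand tags within 10 kb became 8 at a height of 8, at 200 kb and under 25%, and 12 at a height of 15. The share with tags of both brains became 98.96% at a height of 8, 99.9% at 15, 100% under 25%, 99.9% with repeated positions once and 98.6% to 99.9% with a library left out. The share with the opposite strand fuller became 46.0% at a height of 8, 31.5% at 15, 36.3% at 50 kb, 44.0% at 200 kb and 35.3% with repeated positions once. The share chosen in brain 1 and covered by brain 2 became 93.2% at a height of 6, 91.3% with 3 tags, 99.9% chosen in brain 2 and 99.4% with repeated positions once. The causes were not tested.

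The brain difference in library share, 0.400 points, became 1.58 points of the tags in clusters (exact permutation p = 0.0857). It stayed 0.400 with the replicate number as a block (exact sign-flip p = 0.125, the smallest that 4 pairs give) and with libraries of a letter averaged (exact permutation p = 0.333, the smallest possible). With a library left out it was 0.364 to 0.431 points (exact permutation p = 0.0571, the smallest possible). Added after seeing the data, it was 0.357 points without the 20 tallest and 6.79 points as a percent of the same-strand tags within 50 kb. Isolated clusters called by limma voom numbered 0, became 2 scaled by total tags, 1 with no filter and total tags, and 0 to 1 with a library left out (1 without library 4 of brain 1). The replicate block called 0 isolated clusters, with 5 in place of 6 of all 466 called and 8 in place of 9 isolated clusters at an unadjusted p under 0.05. Of the 48, 15 changed the sign of their log2 change under at least 1 alternative (3 with total tags), none of them among the 9 with an unadjusted p under 0.05 (limma). Motif and host gene results with their alternatives were planned and not run, since no genome of the build was used here. Few tags per library limit the site-level comparison to 48 of 3143.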

Other observations

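At chr3:49488057 on the minus strand, an isolated cluster that the count filter left out, brain 1 had 64 tags and brain 2 had 16. Without the filter its log2 change was -1.87 ± 0.48 (SE), with each library of brain 2 below each of brain 1, and limma gave an adjusted p of 0.238. It was picked after its values were seen, as the isolated cluster with the smallest p in that fit.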
